A study of Mus musculus with 6 samples.

Results

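The semaphorin signalling family was followed in neurons sorted from the embryonic mouse cortex. Every gene whose symbol is that of a semaphorin of classes 3 to 7, a plexin or a neuropilin was taken, which gave 31 of the 20367 genes in the deposited tables: 20 semaphorins (the ligands), 9 plexins and 2 neuropilins (the receptors). The embryos came from heterozygous Tbr2(Eomes)-GFP mice crossed with homozygous DCX-mRFP mice, of strain C57BL/6J, and per the labels the cortices were those of embryos positive for both reporters. Cells positive for GFP and RFP were sorted as neurons derived from intermediate progenitors (IPN), and cells with RFP alone as non-IPN. The populations were thus set by fluorescence from the Eomes and Dcx reporters, and the non-IPN gate can hold any RFP-positive cell without GFP. There was 1 library per population at each of 3 embryonic days (E), 13.5, 15.5 and 16.5. At E13.5 and E16.5 each library was made from 10000 cells after whole-transcriptome amplification. At E15.5 it was made from 1000000 cells with no amplification. Age and amplification cannot be told apart for E15.5, so a gene's level was compared by test only between E13.5 and E16.5. A population by day term was also tested; it takes the ratio of the populations within each day, E15.5 included, and amplification at that day cannot be told apart from age in it either.

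Semaphorins are guidance cues for axons and migrating neurons. The secreted class 3 semaphorins mostly bind a neuropilin, which has no signalling domain of its own and forms a complex with a plexin of the A group. The membrane-bound classes bind plexins directly, and the cytoplasmic part of a plexin acts on small GTPases and so on the cytoskeleton. In the developing cortex the family is known for steering radially migrating projection neurons, callosal and corticofugal axons, and tangentially migrating interneurons.

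The level of a gene is its deposited value scaled to a library total of 1000000 (CPM), and values in a series of 3 are in order of age. Column totals ran from 12583677 to 32538995, and they are totals of scaled values, so the true depth is not known and no counting interval is given. Over all genes, the projection neuron markers summed to 6955.4, 8857.1 and 11297.9 CPM in IPN and 1364.8, 926.1 and 5115.2 CPM in non-IPN. The 13 markers of cortical interneurons summed to at most 82.4 CPM in IPN and 1717.4 to 5740.3 CPM in non-IPN. The 12 markers of microglia and macrophages summed to 2.4 to 6.2 CPM in IPN and 506.4 to 977.5 CPM in non-IPN, which are markers of cells other than neurons. The 12 markers of endothelial cells and pericytes, which also use plexins and neuropilins, summed to at most 12.2 CPM in any library, and the 7 of oligodendrocyte precursors to at most 4.2 CPM. The 12 radial glia markers reached 4555.1 CPM in non-IPN at E13.5, against 816.0 to 1616.6 CPM in the other 5 libraries, and hemoglobin genes took 4.92% of that same library. Eomes was at 437, 102 and 98.4 CPM in IPN and 214, 72.5 and 72.0 CPM in non-IPN, and Dcx at 1392, 2862 and 3270 CPM and 855, 4641 and 4448 CPM; the sort reporters follow these genes, and neither gene was called between the populations.

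Of the 31 genes, 26 had a mean of at least 10 CPM over the 6 libraries, 16 of the 20 ligands and 10 of the 11 receptors. The receptors together held 1139, 3491 and 1732 CPM in IPN and 408, 2414 and 1438 CPM in non-IPN. The ligands together held 968, 1401 and 637 CPM in IPN and 656, 1322 and 665 CPM in non-IPN. The summed receptor level was therefore higher in IPN at each age, and the summed ligand level was higher in IPN at E13.5 and nearly equal afterwards. Sums are weighted to the most abundant genes. By log2 ratio of deposited value plus 1, 8, 7 and 6 of the 11 receptors were higher in IPN, with medians of 1.05, 0.19 and 0.14. At E16.5 the 9 plexins summed to 1281 CPM in IPN and 1216 CPM in non-IPN, and by deposited value 4 of them were higher in IPN. These counts by deposited value include 2 ratios that turn in CPM. Plxna1 at E15.5 was at 341 CPM in IPN and 351 CPM in non-IPN, and Plxnd1 at E16.5 at 2.94 and 3.10 CPM. The remaining 5 genes, Plxnb3, Sema3b, Sema3d, Sema3e and Sema3g, were near the lower end of the scale. Among their 30 values, 29 were under 2 CPM, and the highest was Sema3e at 8.82 CPM in non-IPN at E16.5.

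The population difference was tested with limma on log2(deposited value + 1), with embryonic day as a factor, and a gene is said to be called when its p-value adjusted over all 19561 tested genes was under 0.05. The 3 ages were the only replication. An error given with a log2 difference (± SE) is limma's estimate, not the gene's own spread across the ages alone. It joins that spread with the variation of other genes, in this fit with 8.3 prior degrees of freedom (median) beside 2 residual ones. Of the 31 family members, 4 were called higher in IPN and 0 lower, against 664 of all tested genes (3.39%), 0.982% higher and 2.41% lower. These 4 were 2 receptors, Nrp1 and Plxna4, and 2 ligands, Sema3c and Sema6d. Among the 9349 genes with a mean of at least 10 CPM, 420 were called (4.49%), 187 higher and 233 lower. At an unadjusted p under 0.05 in limma there were 9 of the 31 members, beside 2665 of all 19561 tested genes. In the same fit 9 of the 12 projection neuron markers were called higher in IPN, and all 13 interneuron and all 12 microglia and macrophage markers were called lower. Their part in the family's differences was not tested. In IPN, Dlx5, Dlx6, Slc32a1, C1qa, C1qc, Fcer1g and Aif1 were each listed at 0 in at least 1 library. The median difference was 0.02 over the family, -0.39 over the ligands and 0.31 over the receptors, beside -0.02 over all tested genes.

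Promoters are shown for the called genes that have an entry in the RefSeq table for GRCm38.p6 (Nrp1, Sema3c and Sema6d), because all were higher in IPN. Each run is the 250 bases before an annotated start, and capitals mark 2 motifs searched on both strands, the NeuroD-type E-box CAGATG and the GC box GGGCGG, each with its reverse complement. Marked sites of the 2 motifs do not overlap in these windows.
Nrp1 (chr8:128358823-128359072, plus strand): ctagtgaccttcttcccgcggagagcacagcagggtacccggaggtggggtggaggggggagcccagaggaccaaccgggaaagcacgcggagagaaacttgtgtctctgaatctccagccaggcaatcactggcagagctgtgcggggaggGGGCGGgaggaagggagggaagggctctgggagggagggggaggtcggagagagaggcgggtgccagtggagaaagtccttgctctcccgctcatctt
Sema3c (chr5:17574566-17574815, plus strand): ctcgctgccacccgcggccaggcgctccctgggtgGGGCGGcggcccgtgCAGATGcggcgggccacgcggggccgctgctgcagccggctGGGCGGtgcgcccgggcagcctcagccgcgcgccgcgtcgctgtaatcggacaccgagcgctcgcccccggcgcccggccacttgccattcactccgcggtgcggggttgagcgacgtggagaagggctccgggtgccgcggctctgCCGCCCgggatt
Sema6d, first start (chr2:124089719-124089968, plus strand): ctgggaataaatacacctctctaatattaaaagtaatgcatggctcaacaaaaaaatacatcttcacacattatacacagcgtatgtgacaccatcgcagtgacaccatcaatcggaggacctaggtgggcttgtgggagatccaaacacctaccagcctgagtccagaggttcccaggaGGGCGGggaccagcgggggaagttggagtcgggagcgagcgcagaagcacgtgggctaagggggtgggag
Sema6d, second start (chr2:124653331-124653580, plus strand): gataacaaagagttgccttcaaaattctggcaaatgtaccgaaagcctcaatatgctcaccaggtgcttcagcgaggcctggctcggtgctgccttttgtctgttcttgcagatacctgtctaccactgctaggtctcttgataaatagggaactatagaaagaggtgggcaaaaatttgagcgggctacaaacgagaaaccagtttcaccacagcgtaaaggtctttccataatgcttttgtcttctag
The E-box letters occurred in the Sema3c window and in neither of the other genes. Of 37 windows of 26 family members, 2 held it (Sema3c and 1 of Sema4a), beside 12.1% of all 17622 promoter windows. The homeodomain letters TAATTA were in the windows of 0 members (4.3% of all windows), and the T-box letters AGGTGTG, on either strand, were in those of Sema3g, Sema4a and Sema4f (4.6% of all windows). The GC box was in 27 of the 37 windows, from 21 of the 26 members, and in 45.1% of all windows. These counts describe letters only, and several members have more than 1 window.

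Neuropilins were examined first among the receptors. Nrp1, the neuropilin that binds Sema3a, was at 129, 273 and 406 CPM in IPN, and at 30.9, 77.3 and 192 CPM in non-IPN. It was higher in IPN at every age, by 4.17-fold, 3.53-fold and 2.11-fold in CPM, although the highest non-IPN library lay above the lowest IPN library. The fitted log2 difference was 1.79 ± 0.24 (limma, adjusted p = 0.00226). Nrp2, the main neuropilin for Sema3f, was at 80.5, 72.9 and 45.2 CPM in IPN and at 29.8, 98.8 and 29.6 CPM in non-IPN. Its direction differed between ages, being higher in IPN at E13.5 and E16.5 and lower at E15.5, and it was not called (0.67 ± 0.35, limma adjusted p = 0.458).

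**Figure D1:**
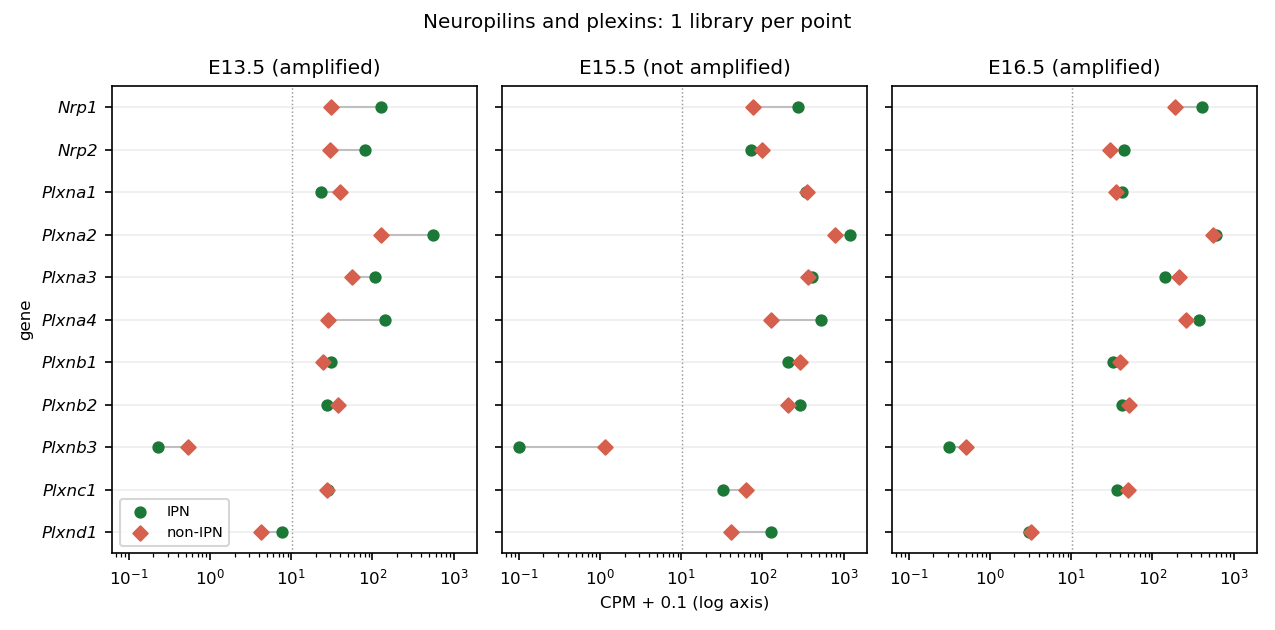
CPM plus 0.1 on a log axis for the 2 neuropilins and 9 plexins at each embryonic day, with 1 point per library (green circles IPN, red diamonds non-IPN) and a dotted line at 10 CPM. Nrp1 and Plxna4 lie to the right in IPN at all 3 ages, and Plxna2 is the rightmost receptor in each panel.

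Plexins of the A group are the partners of neuropilins and receptors of class 6 semaphorins. Plxna4 was at 143, 523 and 379 CPM in IPN and at 28.5, 127 and 262 CPM in non-IPN. The IPN library was the higher of each pair, by 5.01-fold, 4.11-fold and 1.45-fold, while the E16.5 non-IPN library exceeded the E13.5 IPN library. The fitted difference of Plxna4 was 1.77 ± 0.31 (limma, adjusted p = 0.00982). Plxna2 was at 560, 1215 and 603 CPM in IPN and at 128, 790 and 563 CPM in non-IPN. It too was higher in IPN in each pair, but by 4.36-fold at E13.5 and only 1.07-fold at E16.5, and the fitted difference was not called (1.09 ± 0.33, limma adjusted p = 0.138). Plxna3 (0.31 ± 0.27) and Plxna1 (-0.05 ± 0.26) were not called.

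Per kilobase of merged exons, which allows genes to be ordered within a library, Plxna2 was the first receptor in 4 of the 6 libraries. It stood at 32.6, 70.8 and 35.1 CPM per kb in IPN and at 7.48, 46.0 and 32.8 in non-IPN. The exceptions were IPN at E16.5, where Nrp1 came first at 41.5 CPM per kb, and non-IPN at E15.5, where Plxna3 at 46.8 lay close to Plxna2. With 1 library per population and age, neighbours in this order have no replicate spread to be set against.

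The other plexins showed no called difference between the populations. Plxnb1, the receptor of Sema4d, differed by -0.01 ± 0.26 and Plxnb2, a receptor of Sema4c and Sema4g, by 0.07 ± 0.25. Plxnc1, the receptor of Sema7a, differed by -0.32 ± 0.30. Plxnd1, which binds Sema3e without a neuropilin, was at 7.69, 127 and 2.94 CPM in IPN and 4.08, 40.5 and 3.10 CPM in non-IPN, a difference of 0.96 ± 0.46 that was not called (limma, adjusted p = 0.414). Its known ligand Sema3e stayed at or under 1.87 CPM in 5 libraries.

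Among the secreted ligands, Sema3c stood apart from the rest. Sema3c, which binds both neuropilins and is known as an attractant of cortical axons, was at 151, 53.4 and 102 CPM in IPN and at 27.5, 10.04 and 40.1 CPM in non-IPN. All 3 IPN libraries lay above all 3 non-IPN libraries, and the ratio in CPM was 5.48, 5.31 and 2.53. The fitted difference of 2.20 ± 0.29 was the largest of the family among members with a mean of at least 10 CPM (limma, adjusted p = 0.00214). Sema3a, the classical collapsing ligand of Nrp1, was at 44.4, 33.3 and 137 CPM in IPN and at 68.6, 107 and 143 CPM in non-IPN. It was higher in non-IPN mainly at E15.5 (3.21-fold) and was not called (-0.65 ± 0.32, limma adjusted p = 0.43). Sema3f, a ligand of Nrp2, was at 62.4 and 63.5 CPM at E15.5 and at 1.49 to 8.42 CPM in the amplified libraries, and was not called (-0.66 ± 0.55).

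**Figure D2:**
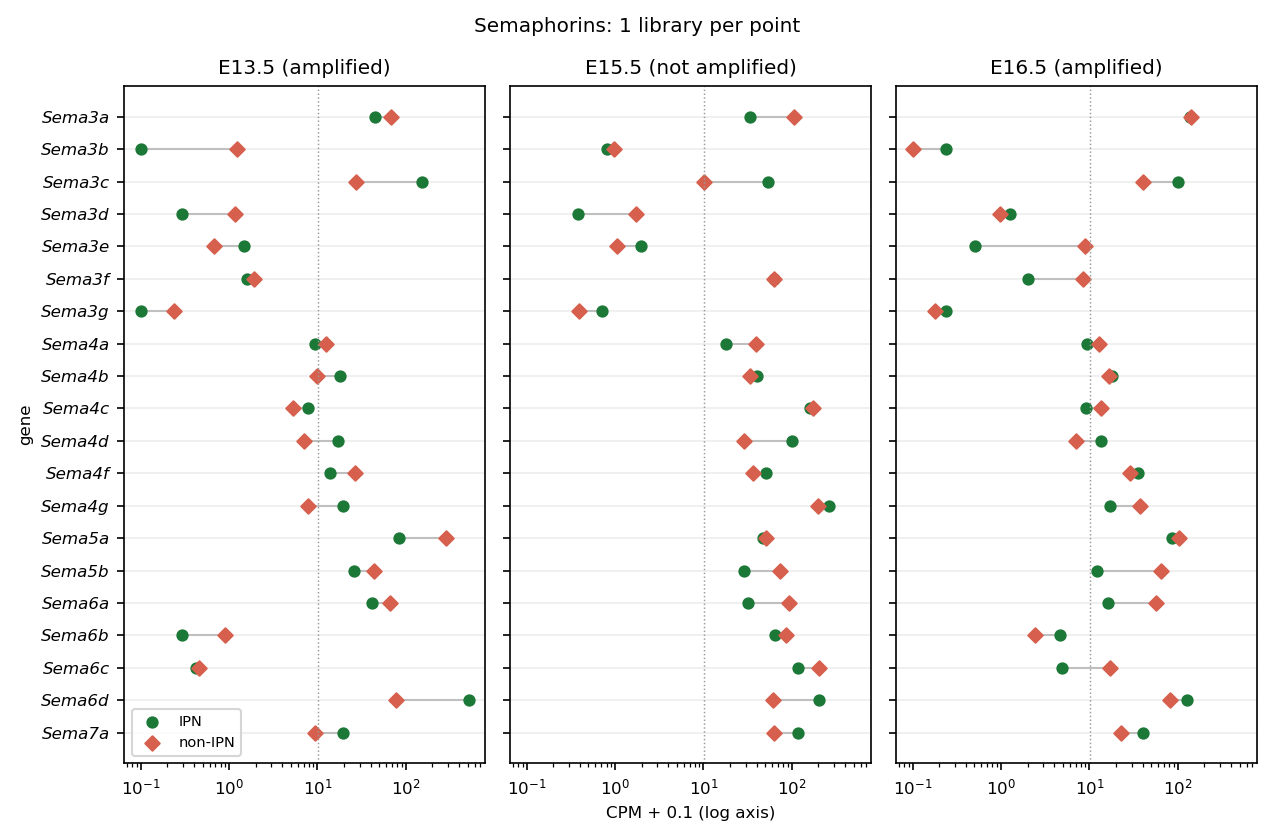
CPM plus 0.1 on a log axis for the 20 semaphorins at each embryonic day, with 1 point per library (green circles IPN, red diamonds non-IPN) and a dotted line at 10 CPM. Sema3c and Sema6d lie to the right in IPN at each age, while Sema5b and Sema6a lie to the right in non-IPN.

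Class 6 semaphorins, transmembrane ligands of A-group plexins, went in different directions. Sema6d was at 514, 204 and 128 CPM in IPN and at 78.2, 60.4 and 82.3 CPM in non-IPN. The IPN libraries all lay above the non-IPN libraries, with ratios of 6.58, 3.37 and 1.55. The fitted difference was 1.84 ± 0.33 (limma, adjusted p = 0.0116). Sema6a, a ligand of Plxna2 and Plxna4, was at 41.3, 31.8 and 16.2 CPM in IPN and at 66.9, 93.6 and 57.1 CPM in non-IPN. All 3 IPN libraries of Sema6a lay below all 3 non-IPN libraries, and the fitted difference of -1.22 ± 0.29 narrowly missed the threshold (limma, adjusted p = 0.0506). Sema6b (-0.26 ± 0.66) and Sema6c (-0.77 ± 0.51) were not called.

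Of the other membrane ligands, 3 had a fitted difference beyond 1 in either direction and a limma adjusted p between 0.05 and 0.1. Sema4d, the ligand of Plxnb1, was at 17.1, 101 and 13.3 CPM in IPN and 7.01, 28.8 and 6.91 CPM in non-IPN (1.48 ± 0.35, limma adjusted p = 0.0512). Sema7a, which is anchored by a lipid tail and also binds integrins, was at 19.4, 117 and 40.3 CPM in IPN and 9.22, 62.2 and 22.8 CPM in non-IPN (1.07 ± 0.28, limma adjusted p = 0.0714). Sema5b, which carries thrombospondin repeats, was at 26.1, 28.6 and 12.04 CPM in IPN and 43.2, 72.9 and 64.5 CPM in non-IPN (-1.36 ± 0.34, limma adjusted p = 0.0609). Each of these kept its direction in all 3 pairs, with Sema4d and Sema7a higher and Sema5b lower in IPN.

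The remaining membrane ligands had smaller fitted differences, from -0.57 to 0.54, and none was called. They were Sema4a (-0.52 ± 0.39), Sema4b (0.54 ± 0.34), Sema4c (0.10 ± 0.34), Sema4f (0.09 ± 0.34), Sema4g (0.35 ± 0.40) and Sema5a (-0.57 ± 0.32). Sema5a was at 82.9, 46.9 and 86.6 CPM in IPN and 288, 50.3 and 102 CPM in non-IPN, so that its difference lay mainly at E13.5. That high value stood in the library with the highest sum of radial glia markers, and the part of those cells in it was not tested. In bulk libraries such as these, fewer cells of a type and less RNA per cell cannot be told apart.

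Per kilobase, the first ligand changed from library to library. Sema6d led in IPN at E13.5 (48.7 CPM per kb), Sema7a in IPN at E15.5 (35.5, nearly tied with Sema4c at 35.1) and Sema3c in IPN at E16.5 (14.2). In non-IPN it was Sema5a at E13.5 (15.4 CPM per kb), Sema4c at E15.5 (38.3) and Sema3a at E16.5 (10.3), the last close to Sema5b at 9.10.

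The sign of the difference in deposited value was the same in all 3 pairs for 13 of the 26 members with a mean of at least 10 CPM. Of these, 9 were higher in IPN and 4 lower, which is 50.0% beside 39.9% of the 9349 genes at that level. The split depends on the scale. In CPM, Plxnd1, 1 of the 9, was at 2.94 in IPN and 3.10 in non-IPN at E16.5. Sema3a, Sema3f and Sema6c, outside the 13, were lower in IPN in all 3 pairs in CPM. Their ratios of IPN to non-IPN were 0.65, 0.31 and 0.96 for Sema3a, 0.83, 0.98 and 0.23 for Sema3f, and 0.90, 0.58 and 0.28 for Sema6c. Without the E15.5 pair 0 members were called, and 54 of all genes were (limma adjusted p from 0.108 for Sema3c to 0.259 for Plxna4, with log2 differences from 1.61 to 2.08). Without the E13.5 pair, Plxna4 was no longer called (1.42, limma adjusted p = 0.0598), while Sema5b and Sema6a were called lower.

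**Figure D3:**
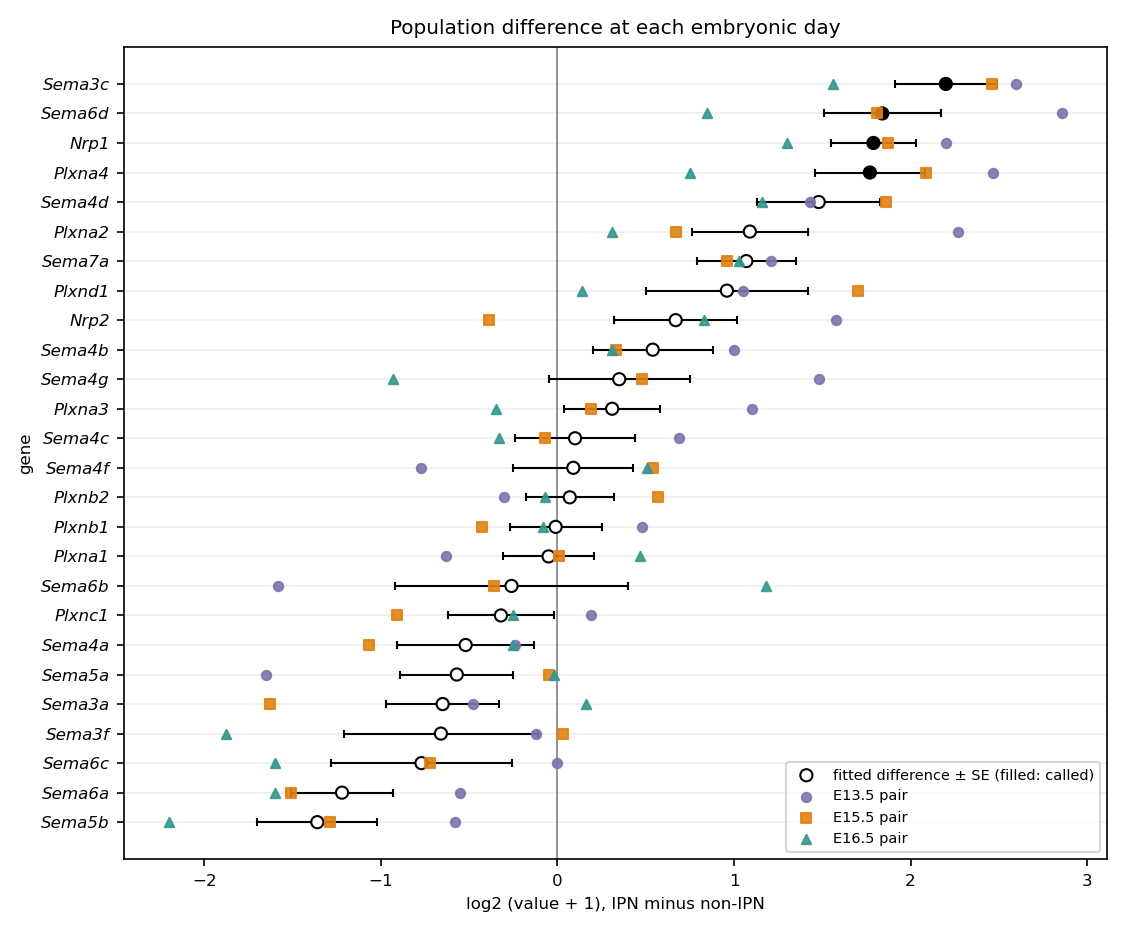
Log2 difference in deposited value plus 1 between IPN and non-IPN for the 26 family members with a mean of at least 10 CPM, at each age (purple circles E13.5, orange squares E15.5, green triangles E16.5) and as fitted with its SE (black circles, filled where called). Sema3c, Sema6d, Nrp1 and Plxna4 are at the top, and their E16.5 difference is the smallest of the 3.

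Whether the population difference changed with embryonic day was tested by a population by day term, in log2 units per day. It was called for 1 member, Plxna2, at -0.67 ± 0.16 per day (limma, adjusted p = 0.0494), where 1.3% of all tested genes were called, 0.624% with a positive and 0.68% with a negative term. At an unadjusted p under 0.05 in limma there were 13 of the 31 members. Beside them stood 3263 of all 19561 tested genes and 1749 of the 9349 with a mean of at least 10 CPM. The log2 ratio of Plxna2 was 2.27, 0.67 and 0.31. Its level in IPN at E16.5 was close to that at E13.5, and in non-IPN it was 563 CPM beside 128 CPM. Sema4g and Sema6d narrowly missed the threshold (-0.76 ± 0.18 and -0.65 ± 0.16, limma adjusted p = 0.0515 and 0.0545). For Sema4g, the log2 ratio was 1.48, 0.48 and -0.93 at the 3 ages, and for Sema6d it was 2.86, 1.81 and 0.85. This fit had 1 residual degree of freedom beside 14.5 prior ones (median), so these errors come mostly from the variation of other genes. The call of Plxna2 was not made with a pseudocount of 10 (limma adjusted p = 0.163) or among genes of at least 10 CPM (limma adjusted p = 0.0707).

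Between E13.5 and E16.5, both amplified, 3 of the 31 members were called higher and 0 lower: Nrp1, Plxna4 and Sema6c. Of all tested genes 6.02% were called, 3.76% higher and 2.26% lower, and among the 9349 genes with a mean of at least 10 CPM the share was 11%. All 3 members are among the 26 at that level, so their share is close to that of genes at their level. Nrp1 went from 129 to 406 CPM in IPN and from 30.9 to 192 CPM in non-IPN (2.03 ± 0.29, limma adjusted p = 0.00488). Plxna4 went from 143 to 379 CPM in IPN and from 28.5 to 262 CPM in non-IPN (2.18 ± 0.37, limma adjusted p = 0.0106). Both receptors were higher at the later age in each population.

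Sema6c had the largest change of the family with age. It was at 0.32 and 0.36 CPM in IPN and non-IPN at E13.5, at 117 and 201 CPM in the unamplified E15.5 pair, and at 4.79 and 17.01 CPM at E16.5 (4.36 ± 0.62, limma adjusted p = 0.00473). At E13.5 this was a deposited value of 5 in each population, so the size of the change depends on few units. Sema6b, its close relative, was at 0.19 and 0.79 CPM at E13.5 and at 4.58 and 2.30 CPM at E16.5 and was not called (2.70 ± 0.81, limma adjusted p = 0.0812).

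Sema3a (1.23 ± 0.39, limma adjusted p = 0.0971), Sema7a (1.06 ± 0.34, 0.0966) and Plxna3 (1.03 ± 0.33, 0.101) had positive fitted changes of similar size that were not called. Among members with a mean of at least 10 CPM, Sema6d had the most negative fitted change (-1.08 ± 0.40, limma adjusted p = 0.149), from 514 to 128 CPM in IPN beside 78.2 and 82.3 CPM in non-IPN. Sema3c (-0.13 ± 0.35) and Nrp2 (-0.54 ± 0.42) were not called. Plxna2 and Sema4g, neither called, combined a log2 change near 2 in non-IPN, 1.98 and 2.12, with 0.02 and -0.29 in IPN. In the 4 amplified libraries alone 0 members were called, and 97 of all genes were (limma adjusted p = 0.056 for Nrp1, 0.0722 for Plxna4 and 0.1 for Sema6c). Leaving out any 1 of these 4 libraries from the fit also left 0 members and 0 genes called.

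**Figure D4:**
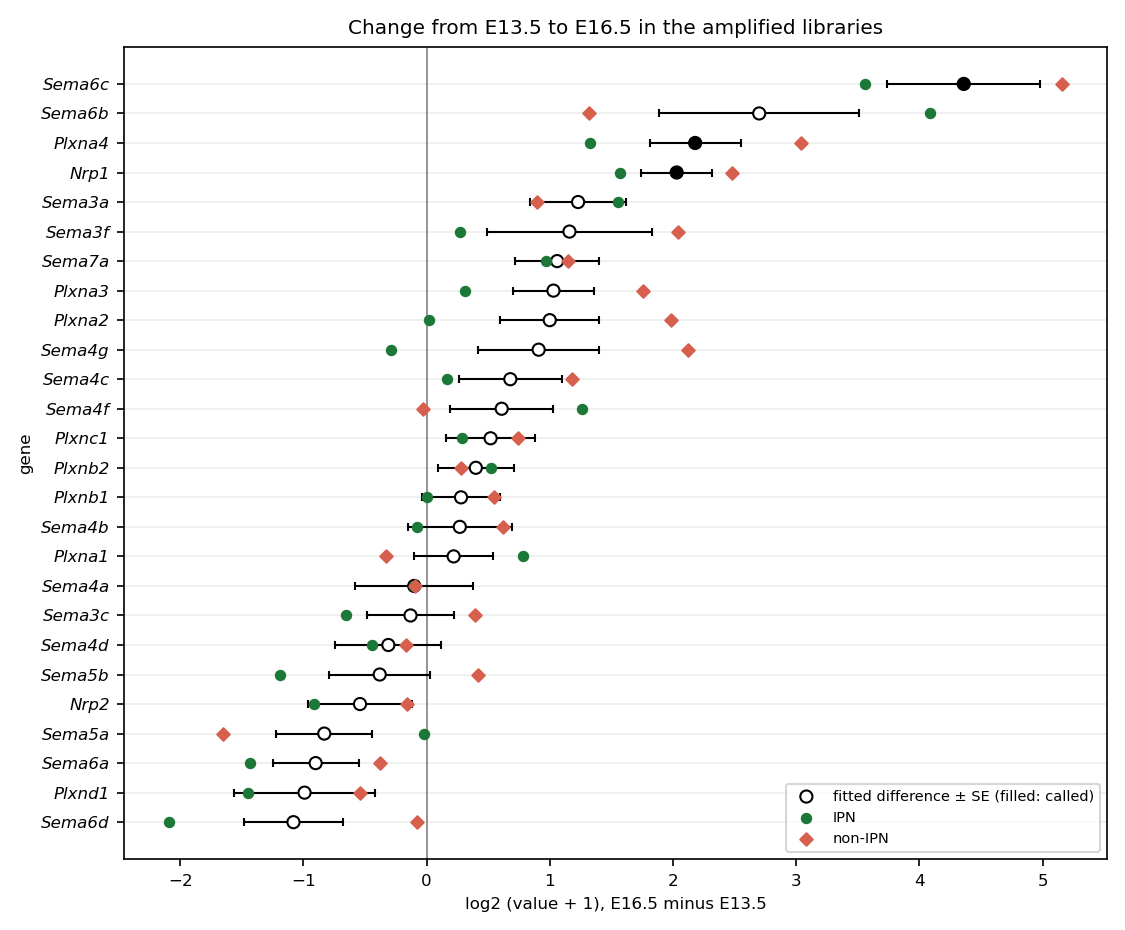
Log2 change in deposited value plus 1 from E13.5 to E16.5 for the 26 members with a mean of at least 10 CPM, in IPN (green circles), in non-IPN (red diamonds) and as fitted with its SE (black circles, filled where called). Sema6c, Plxna4 and Nrp1 are the called members, and Sema6d has the lowest fitted change.

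Partners of the family from a list of 19 co-receptors and other binding proteins gave 2 called higher and 0 lower in IPN (10.5%, beside 3.39% of all tested genes). They were Cntn2 (2.48 ± 0.32, limma adjusted p = 0.00201) and L1cam (1.19 ± 0.24, limma adjusted p = 0.0242), an adhesion molecule that associates with Nrp1. L1cam was at 187, 555 and 213 CPM in IPN and 67.3, 218 and 169 CPM in non-IPN. Of 31 cytoplasmic effectors, 0 were higher and 1 lower (3.23%, close to the share of all tested genes), the kinase Fes (-3.37 ± 0.77, limma adjusted p = 0.0417). Fes was at 0.32, 0.58 and 0.41 CPM in IPN and 5.65, 10.2 and 2.78 CPM in non-IPN. It is also known from myeloid cells, and the 12 microglia and macrophage markers were all called lower in IPN as well, but the part of those cells in the Fes difference was not tested. The median differences of both lists were -0.02, equal to that of all tested genes.

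With age, 3 of the 19 partners were called higher and 1 lower (21.1%, beside 6.02% of all tested genes). They were Met, which partners with B plexins (3.58 ± 0.83, limma adjusted p = 0.033), Cntn2 (2.20 ± 0.39, 0.0119), the L1 relative Chl1, which also associates with Nrp1 (2.14 ± 0.23, 0.00151), and Vegfa, another ligand of neuropilins (-1.20 ± 0.26, 0.027). Of the 31 effectors, 6 were called higher and 0 lower (19.4%, beside 6.02% of all tested genes and 11% of those with a mean of at least 10 CPM). They included Mical2, an actin-oxidizing enzyme (3.86 ± 0.91), Dpysl3, of the collapsin response mediator family (2.75 ± 0.36), the exchange factor Arhgef12, which binds B plexins (1.54 ± 0.26), and the kinase Pak1 (1.34 ± 0.30). Their limma adjusted p-values were 0.0355, 0.00364, 0.00926 and 0.0271. Mical2 was at 0.06 and 0.79 CPM at E13.5, so its change rests on few units. The population by day term was called for 0 of the 19 partners and 0 of the 31 effectors. At an unadjusted p under 0.05 in limma there were 4 and 4, beside 3263 of all 19561 tested genes.

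The E15.5 libraries differed from the amplified ones in the level of many members. Of the 27 members with a mean of at least 1 CPM, 10 were over 4-fold higher in the mean of the 2 E15.5 libraries than in the mean of the 4 amplified libraries and 0 were over 4-fold lower (37.0% higher, beside 18.6% of the 11627 genes at that level with a matched transcript). Sema6b was at 75.04 CPM at E15.5 and 1.97 CPM in the amplified libraries, Sema6c at 159 and 5.62 CPM, Plxnd1 at 83.8 and 4.45 CPM, Sema3f at 62.9 and 3.40 CPM and Sema4c at 169 and 8.80 CPM. At the other end, Sema5a was at 48.6 and 140 CPM and Sema3c at 31.7 and 80.1 CPM.

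This ratio was higher for members richer in G and C. Across the 27 members, the log2 ratio of E15.5 over amplified correlated with the GC content of the longest GENCODE M21 transcript at r = 0.83 (Spearman 0.84). Across 11627 genes with a mean of at least 1 CPM and a matched transcript (90.6% of those at this level) it was 0.53 (Spearman 0.58). These are correlations across genes, which share the same 6 libraries, and are given as descriptions. Sema6b and Sema6c had transcripts of 63.5% and 61.5% GC, and Sema5a, Sema3c and Sema3a of 45.9%, 42.7% and 40.8%. Sema5b, at 60.2% GC, was an exception with 50.8 CPM at E15.5 and 36.4 CPM in the amplified libraries. Over the coding sequence alone (the longest open reading frame) the correlation was 0.79 (Spearman 0.76).

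To show the contrast in the letters, the 150 coding bases with the most G and C are printed for the members furthest apart in that ratio, with G and C in capitals.
Sema6b (coding bases 2368 to 2517, 79.3% GC): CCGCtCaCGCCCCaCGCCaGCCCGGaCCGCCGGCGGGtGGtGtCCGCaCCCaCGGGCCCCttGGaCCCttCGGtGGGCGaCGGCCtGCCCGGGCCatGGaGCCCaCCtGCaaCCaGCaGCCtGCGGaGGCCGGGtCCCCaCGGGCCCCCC
Sema6c (coding bases 2596 to 2745, 80.0% GC): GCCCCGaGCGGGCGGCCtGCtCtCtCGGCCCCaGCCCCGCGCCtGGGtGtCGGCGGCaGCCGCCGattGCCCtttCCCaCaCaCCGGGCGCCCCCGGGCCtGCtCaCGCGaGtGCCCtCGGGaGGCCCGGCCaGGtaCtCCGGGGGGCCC
Sema5a (coding bases 1762 to 1911, 65.3% GC): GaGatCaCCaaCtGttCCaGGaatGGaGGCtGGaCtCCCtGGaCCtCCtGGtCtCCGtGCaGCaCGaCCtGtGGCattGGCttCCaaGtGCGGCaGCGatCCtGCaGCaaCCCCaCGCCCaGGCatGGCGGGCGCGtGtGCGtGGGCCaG
Sema3c (coding bases 1498 to 1647, 59.3% GC): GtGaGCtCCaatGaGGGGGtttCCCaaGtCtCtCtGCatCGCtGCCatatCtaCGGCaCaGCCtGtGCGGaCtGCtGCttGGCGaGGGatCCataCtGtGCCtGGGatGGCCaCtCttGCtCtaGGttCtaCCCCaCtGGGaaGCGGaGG
The stretches of Sema6b and Sema6c (coding sequences of 2661 and 2892 bases) hold more G and C than the richest stretches of Sema5a and Sema3c. The richest stretch alone followed the ratio less closely across the 27 members (r = 0.55).

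**Figure D5:**
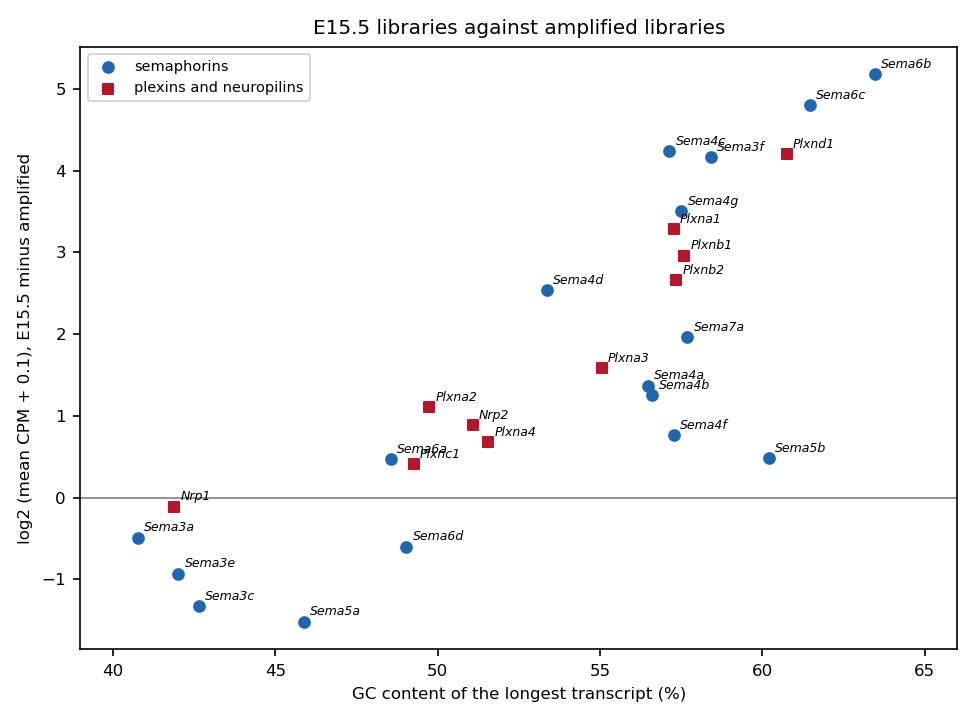
GC content of the longest transcript in percent against the log2 ratio of mean CPM plus 0.1 at E15.5 over the amplified libraries, for the 27 members with a mean of at least 1 CPM (blue circles semaphorins, red squares plexins and neuropilins). The ratio is below 0 for Sema3a, Sema3c, Sema3e, Sema5a, Sema6d and Nrp1 and highest for Sema6b and Sema6c, which have the highest GC content.

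The ratios between libraries of the same kind followed base composition less. Across the 27 members, the population ratio correlated with GC content at r = -0.35, -0.20 and -0.05, and the change from E13.5 to E16.5 at 0.29 in IPN and 0.02 in non-IPN. After a correction of each library for transcript GC, added after seeing these values, the 4 members called between populations were called again and Sema4d was called higher in addition. The 3 members called between ages were also called again.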

How the data were processed

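RNA sequencing of 6 libraries was used, 1 per population and age. TopHat 1.2.0, CASAVA 1.9, edgeR and SAMtools 0.1.18 are named, with mm9, per the submitters' processing notes. Which tool did what, how reads were counted, the annotation and the scaling were not given in the sources used here. The deposited values are whole numbers that were treated as a scaled signal, since their upper quartiles nearly coincided (1501 and 1502 at E15.5, 438 to 444 in the amplified libraries) while totals differed. Files were joined by symbol; 3 symbols listed more than 1 time were dropped. The 19561 genes above 0 in at least 1 library were fitted with limma 3.58.1 (R 4.3.3, trend and robust options, Benjamini-Hochberg adjustment) on log2(value + 1), which understates changes of low genes. Embryonic day was the pairing in the fit, because per the labels both populations of a day were sorted from shared cortices. The labels name no separate animals, so p-values measure the spread between these samples only. A second fit added population by day as a number.

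The population fit was run on simulated data with planted changes. No simulated population ratio was set to differ between days, so the run cannot show how the fit behaves where ratios do. The gene family, lists and tests were chosen with earlier results of these data known. All members are named, with every library's value for those called and the neuropilins. Fitted population differences are given for all members of at least 10 CPM. Fitted values between ages and for the day term are given for only some of them. Up to 4 called genes per direction are named from each pathway list. Of 151 entries in the pathway and marker lists, 150 were matched. Exon lengths and transcript GC came from GENCODE M21 (GRCm38), another build than the authors' mm9, and were matched by symbol; levels per kb therefore approximate. In that annotation the exons of Plxna1, Plxna4, Plxnb1 and Sema4c overlap an opposite-strand gene, and the strandedness of the deposited values is not given, so reads of the 2 strands cannot be told apart there. Markers of red blood cells, meninges and Cajal-Retzius cells were also summed: 6.2 to 49267.0, 0.8 to 9.7 and 370.6 to 1799.7 CPM.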

Additional observations from a re-analysis of the deposited data

Results flagged for a closer look

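A change of the population difference with embryonic day was called for Plxna2, at -0.67 log2 units per day in IPN relative to non-IPN (SE 0.16, limma adjusted p = 0.0494, 1 library per population and age). The call was lost under 3 of 7 alternatives, and the E15.5 pair in it was not amplified. The level of Plxna2 was 4.36-fold higher in IPN at E13.5, 1.54-fold at E15.5 and 1.07-fold at E16.5. The non-IPN library at E13.5, where Plxna2 was lowest (128 CPM), also had the highest sum of radial glia markers (4555.1 CPM) and 4.92% of its total in hemoglobin genes, and their part in the difference was not tested.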

How the results depend on the processing

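The fitted log2 differences between populations kept their sign under all 12 alternatives for Nrp1 (1.58 to 2.04), Plxna4 (1.42 to 2.28), Sema3c (2.01 to 2.53) and Sema6d (1.33 to 2.33), and the calls did not. Main counts were 4 members higher, 0 lower and 664 genes in all. With a pseudocount of 10 they were 2 members higher and 334 genes (Plxna4 and Sema6d lost, limma adjusted p = 0.061 and 0.0705). Among genes of at least 10 CPM, 358 genes and 5 members were called. With values divided by the column total of the column total, 1 member (Sema6a) was called lower; this scaling moved the median difference of genes of at least 10 CPM from 0.09 to -0.05 between populations and from 0.05 to 0.16 between ages. Without limma's trend and robust options 0 members and 0 genes were called in each comparison, with 8, 5 and 3 members at an unadjusted p under 0.05 between populations, between ages and for the day term. Without embryonic day as the pairing (no replicate block) 0 members and 0 genes were called (2 members at an unadjusted p under 0.05), and 0 members and 30 genes on values divided by the column total. Leaving out 1 pair gave 0 to 4 members higher, 0 to 2 lower and 54 to 595 genes.

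Between ages the main counts were 3 members higher and 1178 genes, and 452 genes with a pseudocount of 10. The 4 amplified libraries alone gave 0 members and 97 genes. Leaving out 1 amplified library gave 0 members and 0 genes, with 5 to 7 members at an unadjusted p under 0.05; these fits have 1 residual degree of freedom, and a lone library is assumed to vary like the others. Without the E13.5 IPN library the fitted change of Nrp2 turned from -0.54 to 0.14. It was -1.22 when non-IPN at E13.5 was left out.

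For the population by day term the main counts were 0 members higher, 1 lower and 255 genes. They were 3 lower and 483 genes with a pseudocount of 0.25, 0 and 9 with a pseudocount of 10, 0 and 135 among genes of at least 10 CPM, 2 higher, 5 lower and 1445 genes with values divided by the column total, 2 higher, 5 lower and 1559 genes with median-of-ratios factors, and 2 lower after the GC correction chosen after seeing the data. The median prior degrees of freedom were 14.5 in the main fit, and 20.6 and 7.6 with pseudocounts of 0.25 and 10, beside 1 residual one. They were infinite with values divided by the column total and with median-of-ratios factors. With an infinite prior a gene's own spread has no weight in its error. The cause of these shifts was not tested. Depth is unknown, and amplification changed together with the E15.5 age.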
